A study of Homo sapiens with 12 samples.

Results

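T47D cells given a progestin at 100 pM were compared between 18 h and 6 h of treatment, using the 4 libraries whose labels carry that dose (2 at each time) out of 12 in the series. T47D is a human breast carcinoma line of luminal type, and a progestin is a ligand of the progesterone receptor; the labels do not name the compound. Cells were serum-starved in medium with charcoal-stripped serum and without phenol red, then given vehicle, 100 pM or 10 nM progestin for 6 h or 18 h, and total RNA was made into Nextera libraries. The groups used were 100 pM at 6 h and at 18 h, with vehicle at both times as the measure of drift without hormone and 10 nM at both times set beside them. Every group had 2 libraries, numbered replicate 1 and replicate 3, and all groups share the cell line and the starvation. The labels do not say whether the 2 libraries of a group are separate cultures, and every p-value rests on the spread among these 12 libraries alone.

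The progesterone receptor is a ligand-activated transcription factor that binds DNA at hormone response elements and is itself lowered after it is activated. In breast cancer cells progestins are known to act in phases, with a passage of cells from G1 into S phase early on and an arrest in G1 later, and to raise genes of lipid synthesis, secretion and ion transport. Passage into S phase is driven by E2F factors, which act on the genes of nucleotide and DNA synthesis, and the genes of mitosis follow through CCAAT boxes and the cell cycle element called CHR.

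The libraries held 34204970 to 41373890 counts. Of 20114 genes listed, 13872 passed the filter on low counts and were tested. Levels are CPM (counts scaled to library size), given for replicate 1 and then replicate 3, and fold changes are log2 values of 18 h against 6 h ± SE. A gene was called, and is said to have risen or fallen, at an adjusted p under 0.05 in edgeR's quasi-likelihood fit to all 12 libraries. A second fit added the replicate number as a term and is named "with the block", because libraries with the same number moved together and this fit changed many calls. The luminal epithelial markers EPCAM, KRT8, KRT18, KRT19, GATA3, FOXA1, ESR1 and PGR were all present in the 100 pM libraries. Of markers of other cells, the fibroblast list summed to 95 to 114 CPM at 6 h and 82.3 to 82.8 CPM at 18 h, mostly from COL1A1 (75.9 to 104 CPM), with COL1A2 and POSTN at 0. Immune markers summed to 5.51 to 7.27 CPM with CD3E at 0, and endothelial markers to 1.91 to 4.11 CPM. These are bulk libraries, in which fewer cells of a kind and less RNA per cell cannot be told apart.

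Between 6 h and 18 h of 100 pM progestin the water channel gene AQP3, the cytochrome P450 gene CYP4Z1 and the retinol dehydrogenase gene RDH16 rose, while the apelin gene APLN, the Notch coactivator MAML2 and the luminal factor GRHL2 fell. Most genes tested for DNA replication, DNA repair and mitosis had higher estimates at 18 h, and all 77 of cytosolic ribosomal proteins lower ones. Of these 4 lists 1 gene (RPS29) was called without the block, and most members were called with it. In all, 164 of 13872 genes were called (1.18% of genes tested), 73 higher (0.526%) and 91 lower (0.656%), and 24 of the rises and 25 of the falls were more than 2-fold. With the block 3076 genes were called (22.2%), 1591 higher (11.5%) and 1485 lower (10.7%), and all 164 were among them. In all 164 both 18 h libraries lay on 1 side of both 6 h libraries, as they did in 42.5% of all genes tested. Without the block 2251 of the 13872 genes (16.23%) had an unadjusted p under 0.05, 1067 higher and 1184 lower. Counts of list members at that cut are to be read beside these. DESeq2 on the same libraries called 479 higher and 376 lower. Leaving out 1 of the 4 libraries left 9 calls without replicate 1 at 18 h, 26 without replicate 3 at 18 h, 11 without replicate 1 at 6 h and 9 without replicate 3 at 6 h; with the block the same 4 fits gave 1941, 1756, 1729 and 1289 calls. Fitting the 4 libraries of 100 pM by themselves gave 0 calls, with 1499 genes at an unadjusted p under 0.05.

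In vehicle 0 of 13872 genes were called by edgeR (0%), 178 had an unadjusted p under 0.05, and DESeq2 called 2. With the block 4 genes rose in vehicle (0.0288%), and 1343 had an unadjusted p under 0.05. Among the 4 were ICAM1, an adhesion molecule of NF-kB signalling, and the stress factors ATF3 and DDIT3. ICAM1 measured 35.7 and 5.97 at 6 h and 72.2 and 12.5 CPM at 18 h in vehicle, and 35.7 and 5.11 at 6 h and 75.04 and 13 CPM at 18 h at 100 pM. Replicate 1 was several times above replicate 3 in each of those groups, and both replicates went up in both conditions. Without replicate 1 at 18 h the estimate for ICAM1 turned negative in either condition.

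**Figure D1:**
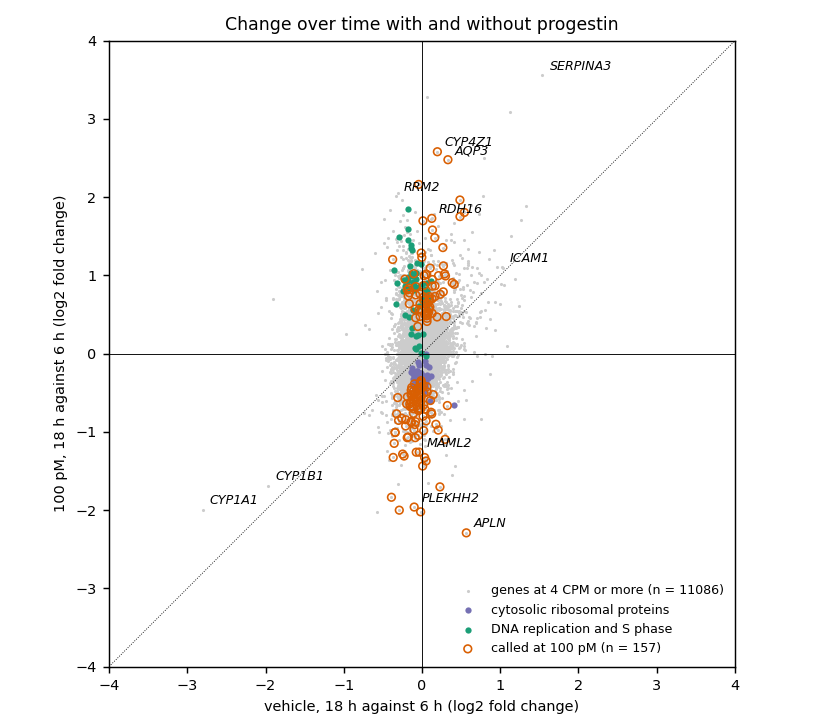
Change from 6 h to 18 h in vehicle (horizontal axis) and at 100 pM (vertical axis), log2 fold changes of 11086 genes with a mean of at least 4 CPM in either 100 pM group; 1 gene lies outside the axes. Rings mark the 157 of these that were called at 100 pM, and filled points the DNA replication and cytosolic ribosomal protein lists; most rings lie closer to 0 on the vehicle axis than on the 100 pM axis, while CYP1A1 and CYP1B1 lie low on both axes.

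The genes described first are the 10 largest rises and 10 largest falls among called genes whose mean reached 4 CPM in the higher group and whose libraries did not overlap between times. The largest rise was in CYP4Z1, a cytochrome P450 of mammary tissue. It measured 4.04 and 8.65 at 6 h and 31.6 and 44.2 CPM at 18 h (log2 change 2.58 ± 0.46, adjusted p = 0.0419). Both 18 h libraries were above both 6 h libraries, and the vehicle libraries stayed at 1.704 to 3.35 CPM. AQP3, a channel for water and glycerol, measured 12.2 and 13.02 at 6 h and 81.1 and 59.6 CPM at 18 h (log2 change 2.48 ± 0.19, adjusted p = 0.00158). Its 4 vehicle libraries lay at 4.04 to 6.01 CPM, so the 6 h libraries were already above them and the 18 h libraries were well apart from all others. FGD5, a guanine nucleotide exchange factor, went the other way at first: it measured 1.89 and 1.63 at 6 h and 6.15 and 9.63 CPM at 18 h (log2 change 2.16 ± 0.30, adjusted p = 0.0186), against 3.61 to 4.17 CPM in vehicle. It was thus below vehicle in both 6 h libraries and above vehicle in both 18 h libraries.

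RBP2 and RDH16 were already above vehicle at 6 h. RBP2, which carries retinol inside cells, measured 3.92 and 2.599 at 6 h and 15.2 and 10.2 CPM at 18 h (log2 change 1.96 ± 0.28, adjusted p = 0.0189). In vehicle RBP2 was at 0.153 to 0.298 CPM. RDH16, a retinol dehydrogenase, measured 12.3 and 19.96 at 6 h and 53.6 and 53.1 CPM at 18 h (log2 change 1.73 ± 0.27, adjusted p = 0.0265), and its 18 h replicates were nearly equal. Vehicle libraries held 5.65 to 6.21 CPM of RDH16.

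IVL, which encodes involucrin of the cornified envelope, and CCL28, a chemokine of secretory epithelia, were below every vehicle library at 6 h and above every one at 18 h. IVL measured 1.84 and 1.199 at 6 h and 6.52 and 4.14 CPM at 18 h (log2 change 1.80 ± 0.33, adjusted p = 0.0447). In vehicle IVL was higher at 18 h too, with 2.49 and 2.97 at 6 h and 4.08 and 3.87 CPM at 18 h. CCL28 measured 1.96 and 2.03 at 6 h and 8.36 and 5.07 CPM at 18 h (log2 change 1.75 ± 0.32, adjusted p = 0.0452). In vehicle CCL28 also went up, from 2.798 and 2.84 at 6 h to 4.05 and 3.85 CPM at 18 h. Neither gene was called against vehicle at 6 h or 18 h, apart from CCL28 at 18 h with the block (adjusted p = 0.0323). The difference from the change in vehicle was not called for either gene (adjusted p with the block 0.0674 for IVL and 0.0749 for CCL28). For both genes the higher 18 h value was in replicate 1. BDKRB2, a bradykinin receptor, rose from 3.96 and 3.14 to 14 and 9.09 CPM at 18 h (log2 change 1.70 ± 0.23, adjusted p = 0.0186), having been near vehicle (3.54 to 4.35 CPM) at 6 h. ATP6V1C2, a subunit of the vacuolar proton pump, measured 4.699 and 6.396 at 6 h and 18.2 and 14.9 CPM at 18 h (log2 change 1.58 ± 0.26, adjusted p = 0.0328). SLC43A3, a nucleobase transporter, measured 11.6 and 6.71 at 6 h and 26.9 and 24.5 CPM at 18 h (log2 change 1.48 ± 0.25, adjusted p = 0.0339). In both genes the vehicle libraries lay below all 18 h libraries, at 3.68 to 5.37 CPM and 5.61 to 8.03 CPM.

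APLN, the gene of the peptide that binds the apelin receptor, had the largest fall. It measured 28.3 and 23.6 at 6 h and 5.58 and 5.01 CPM at 18 h (log2 change -2.29 ± 0.22, adjusted p = 0.00528). Vehicle libraries held only 0.127 to 0.325 CPM, so the 18 h level was lower than at 6 h and still far above vehicle. SLC2A12, a glucose transporter, crossed vehicle instead: it measured 11.8 and 8.25 at 6 h and 2.99 and 1.94 CPM at 18 h (log2 change -2.02 ± 0.36, adjusted p = 0.0409). In vehicle SLC2A12 was at 3.28 to 5.32 CPM. ARHGAP24, a GTPase-activating protein for Rac, did the same, with 8.91 and 13.6 at 6 h and 2.99 and 3.91 CPM at 18 h (log2 change -1.70 ± 0.32, adjusted p = 0.0489) and vehicle at 4.58 to 7.74 CPM. CASC10 measured 17.4 and 24.2 at 6 h and 5.56 and 4.81 CPM at 18 h (log2 change -2.001 ± 0.22, adjusted p = 0.00971). In vehicle CASC10 was at 6.599 to 9.32 CPM.

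Other falls began at or below the level of vehicle. PLEKHH2 measured 22.4 and 25.04 at 6 h and 6.21 and 5.97 CPM at 18 h (log2 change -1.96 ± 0.17, adjusted p = 0.002804) against 37.6 to 43.4 CPM in vehicle. NAALADL2 measured 59.2 and 59.2 at 6 h and 19.01 and 24.7 CPM at 18 h (log2 change -1.44 ± 0.17, adjusted p = 0.0101), and its 6 h libraries lay within the vehicle libraries (59.04 to 62.3 CPM). FGF12, an intracellular relative of the fibroblast growth factors, measured 19.5 and 17.4 at 6 h and 7.58 and 6.67 CPM at 18 h (log2 change -1.37 ± 0.12, adjusted p = 0.002804). In vehicle FGF12 was at 20.2 to 22.8 CPM. The 18 h libraries of all 3 genes were below every 6 h and every vehicle library. ROBO2, a receptor for Slit guidance proteins, measured 52.1 and 45.6 at 6 h and 20.8 and 18.1 CPM at 18 h (log2 change -1.33 ± 0.17, adjusted p = 0.0157). PLXDC2, a membrane protein with a plexin repeat, measured 48.2 and 49.8 at 6 h and 18.9 and 20.2 CPM at 18 h (log2 change -1.33 ± 0.16, adjusted p = 0.0101). In vehicle PLXDC2 was lower at 18 h too, with 43.8 and 50.2 at 6 h and 32.2 and 40.6 CPM at 18 h (log2 change -0.37). The difference from the change in vehicle was -0.96 (adjusted p = 0.344, and 0.0045 with the block). TPM4, a tropomyosin of actin filaments, was low throughout, with 5.46 and 6.22 at 6 h and 1.66 and 1.604 CPM at 18 h (log2 change -1.84 ± 0.33, adjusted p = 0.0419). In vehicle TPM4 also went down, from 8.55 and 9.81 at 6 h to 5.87 and 8.12 CPM at 18 h (log2 change -0.39). Its difference from the change in vehicle was -1.445 (adjusted p = 0.5395, and 0.01101 with the block).

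**Figure D2:**
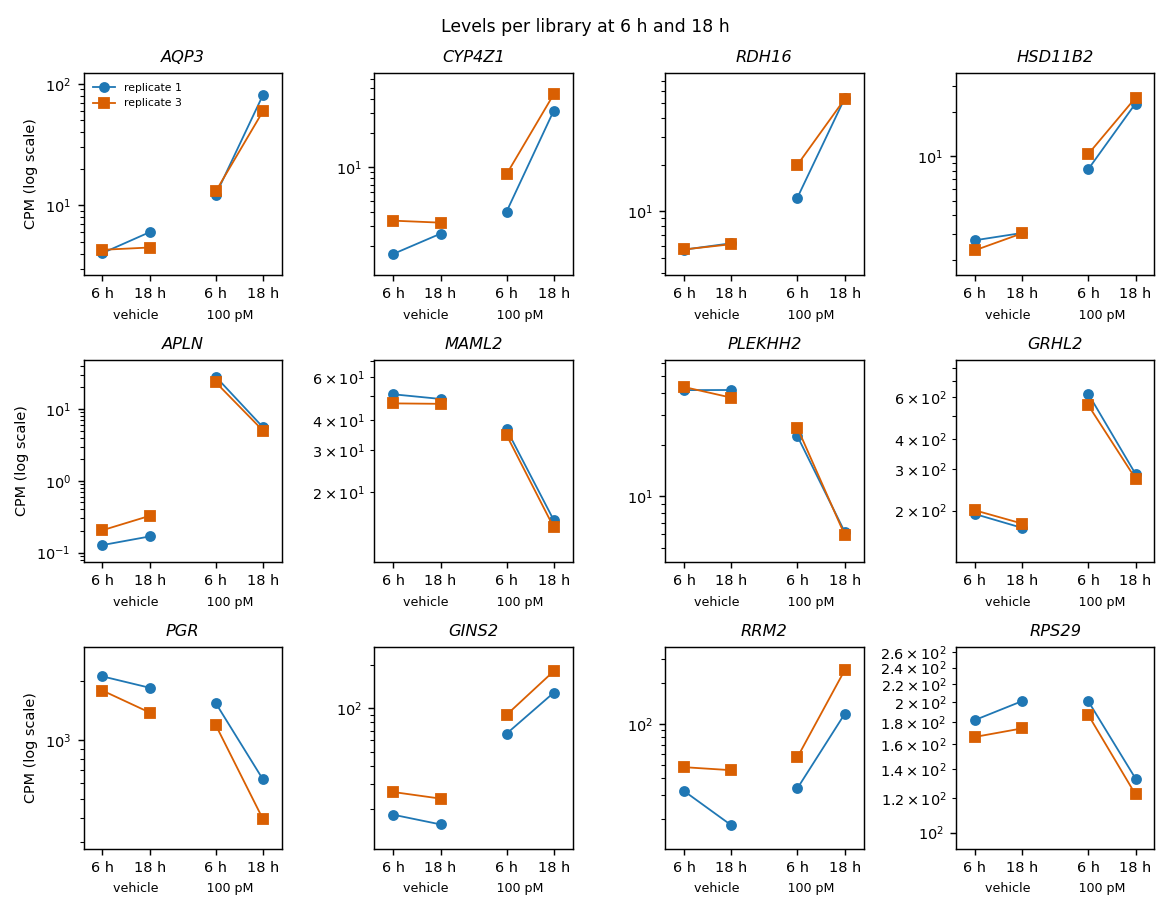
Level of 12 genes in each library (CPM, log axis with its own range in each panel) for vehicle and 100 pM at 6 h and 18 h; circles and squares are replicates 1 and 3, and lines join libraries with the same number and condition. The top row and GINS2 and RRM2 go up at 100 pM, the middle row, PGR and RPS29 go down, and the vehicle lines of MAML2, GRHL2 and RDH16 stay nearly level.

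MAML2 and NPNT were the only genes whose change at 100 pM was called as different from the change in vehicle in the fit without the block. MAML2, a coactivator of Notch transcription, measured 36.5 and 34.5 at 6 h and 15.3 and 14.3 CPM at 18 h, and in vehicle 50.98 and 46.8 at 6 h and 48.8 and 46.5 CPM at 18 h. Its change at 100 pM was -1.26 ± 0.08 (adjusted p = 0.00158), and the difference from the change in vehicle was -1.22 ± 0.11 (adjusted p = 0.0333). NPNT, which encodes the integrin ligand nephronectin, measured 56.1 and 56.9 at 6 h and 27.8 and 29.3 CPM at 18 h, and in vehicle 65.1 and 70.05 at 6 h and 70.4 and 66.8 CPM at 18 h. The change was -0.98 ± 0.07 (adjusted p = 0.00158), and the difference from vehicle -1.01 ± 0.10 (adjusted p = 0.0416).

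These 2 genes are 0.0144% of those tested, and edgeR counted 988 genes at an unadjusted p under 0.05 for the difference from vehicle. Both lost the call when any 1 of the 8 libraries was left out. With the block 777 genes differed from vehicle in their change over time (5.6%), 435 with a higher change at 100 pM (3.14%) and 342 with a lower one (2.47%), and DESeq2 called 108. With the block the difference for CYP4Z1 was 2.41 ± 0.25 (adjusted p = 0.000845), and for ANO1, a calcium-activated chloride channel, 2.4 ± 0.27 (adjusted p = 0.00152). For RRM2, the small subunit of ribonucleotide reductase, it was 2.41 ± 0.41 (adjusted p = 0.0204). PHOSPHO1 and KIAA0101, the latter a PCNA-binding protein, were also higher by this test, at 2.64 and 2.28. For PHOSPHO1 the change at 100 pM was 0.70 and that in vehicle -1.91, the latter between levels of 0.0559 to 0.2798 CPM that rest on few counts. Lower by it were APLN (-2.86), SLC2A12 (-2.02), ARHGAP24 (-1.93), HMCN1 (-1.91), a matrix protein, and CTNND2 (-1.91), a catenin. The value for APLN includes a vehicle change of 0.57 between levels that are also of few counts.

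PGR, ESR1 and NR3C2 had lower levels in both 18 h libraries than in either 6 h library and fell with the block. PGR, the receptor of the ligand itself, measured 1540 and 1189 at 6 h and 626 and 393 CPM at 18 h, and the vehicle libraries 1379 to 2111 CPM. Both 6 h libraries were below both vehicle libraries of 6 h (2111 and 1786 CPM), called only with the block (adjusted p = 0.614, and 0.00692 with the block). Both 18 h libraries were below every vehicle library. The change was -1.42 ± 0.29, with an adjusted p of 0.0619 that missed the threshold, and 2.52e-05 with the block. In vehicle PGR was lower at 18 h too, at 1846 and 1379 CPM (log2 change -0.27). The difference from the change in vehicle was -1.15 (adjusted p = 0.6255, and 0.00285 with the block). ESR1, the estrogen receptor, measured 139.5 and 165 at 6 h and 99.1 and 97 CPM at 18 h (log2 change -0.63 ± 0.19, adjusted p = 0.153, and 0.0018 with the block). In vehicle ESR1 was lower at 18 h too, with 204 and 242 at 6 h and 165 and 189 CPM at 18 h (log2 change -0.33). Its difference from the change in vehicle was not called (adjusted p = 0.949, and 0.285 with the block). NR3C2, the mineralocorticoid receptor, measured 10.6 and 9.71 at 6 h and 7.296 and 6.53 CPM at 18 h (log2 change -0.55 ± 0.13, adjusted p = 0.0876; with the block 0.00834). Of the 6 steroid receptor genes tested, 0 were called without the block and 3 had an unadjusted p under 0.05, all lower. DESeq2 called 2 and the block 3, all lower, and the median of the list was -0.38 against -0.01 over all genes tested. In vehicle the list's median was -0.19, with all 6 estimates lower at 18 h.

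Known targets of the receptor did not move together. FKBP5, a cochaperone of steroid receptors, measured 627 and 885 at 6 h and 774 and 855 CPM at 18 h (log2 change 0.11 ± 0.36, adjusted p = 0.919), far above vehicle (28.1 to 59.4 CPM) at both times, and its 6 h and 18 h libraries overlapped. The sign for FKBP5 and for SGK1 turned when 1 library was left out. SGK1, a kinase that steroid hormones induce, measured 38.1 and 62.2 at 6 h and 34.3 and 49.8 CPM at 18 h (log2 change -0.26 ± 0.37, adjusted p = 0.794). In vehicle SGK1 was at 0.102 to 0.352 CPM. GREB1, a cofactor known from estrogen action, fell and stayed above the vehicle libraries. It measured 760.4 and 827 at 6 h and 499 and 432 CPM at 18 h (log2 change -0.77 ± 0.12, adjusted p = 0.0268). In vehicle GREB1 was lower at 18 h too, with 183 and 213 at 6 h and 160 and 156 CPM at 18 h (log2 change -0.32). The difference from the change in vehicle was -0.44 and was not called (adjusted p = 0.645, and 0.11 with the block). HSD11B2, the enzyme that inactivates cortisol, rose from 8.199 and 10.4 to 22.7 and 24.8 CPM at 18 h (log2 change 1.36 ± 0.21, adjusted p = 0.0269). In vehicle HSD11B2 was at 2.33 to 3.05 CPM. Of 47 genes tested in the progestin and glucocorticoid response list, 1 rose and 2 fell (HSD11B2, then APLN and GREB1). With the block 9 rose and 3 fell (3 to 10 higher and 2 to 3 lower with 1 of the 100 pM libraries left out). Over all genes tested the block called 11.5% higher and 10.7% lower. The list's median was 0.10 at 100 pM and 0.08 in vehicle, with 30 of 47 estimates higher at 18 h in each. GRHL2 and AGR3, which were above vehicle at 6 h, fell as well. GRHL2, a grainyhead factor of epithelia, measured 620.3 and 556 at 6 h and 286 and 273 CPM at 18 h (log2 change -1.07 ± 0.08, adjusted p = 0.00158). In vehicle GRHL2 was at 169 to 201 CPM. AGR3, a disulfide isomerase of luminal cells, measured 46.8 and 36.6 at 6 h and 24.8 and 19.8 CPM at 18 h (log2 change -0.91 ± 0.16, adjusted p = 0.0408). In vehicle AGR3 was at 10.2 to 12.9 CPM; these were the only 2 of 25 luminal markers called, and with the block 2 rose and 7 fell (0 to 4 higher and 5 to 7 lower with the block and 1 of the 100 pM libraries left out).

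Genes of DNA synthesis were higher at 18 h than at 6 h in nearly all members. Of 54 genes tested in the DNA replication and S phase list, 50 were higher at 18 h in both replicate numbers and 0 lower in both, while over all 13872 genes 4902 were higher and 5462 lower in both. The list's median was 0.85, or 0.714 in replicate 1 and 0.921 in replicate 3, and in vehicle -0.161 and -0.0586. EdgeR called 0 of them without the block, with 29 higher and 0 lower at an unadjusted p under 0.05. DESeq2 called 15 and the block 43, all higher. With the block and 1 of the 100 pM libraries left out, 33 to 44 were called. The difference from the change in vehicle was called for 36 of the 54 with the block and for 0 without it, where 13 had an unadjusted p under 0.05 and DESeq2 called 0.

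GINS2, a subunit of the replicative helicase complex, had the smallest p of the list with the block. It measured 66.9 and 90.3 at 6 h and 129 and 181 CPM at 18 h (log2 change 0.98 ± 0.34, adjusted p = 0.196; with the block 1.06e-05). In vehicle GINS2 was at 15.7 to 26.4 CPM. CDC45, its helicase partner, measured 5.75 and 12.5 at 6 h and 18.4 and 36.8 CPM at 18 h (log2 change 1.60 ± 0.68, adjusted p = 0.293; with the block 3.45e-05). POLA1, the catalytic subunit of DNA polymerase alpha, measured 27.8 and 29.4 at 6 h and 45.3 and 65.4 CPM at 18 h (log2 change 0.95 ± 0.20, adjusted p = 0.0667; with the block 0.000113). Both 18 h libraries were above both 6 h libraries for these genes, and replicate 3 lay above replicate 1 at each time. MCM7, another helicase subunit, measured 81.1 and 102 at 6 h and 149.9 and 199.9 CPM at 18 h (log2 change 0.93 ± 0.28, adjusted p = 0.148; with the block 0.000171). POLE2, of DNA polymerase epsilon, measured 7.86 and 11.4 at 6 h and 16.4 and 26.6 CPM at 18 h (log2 change 1.16 ± 0.39, adjusted p = 0.184; with the block 0.000113).

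The promoters of these genes are shown because members of the list moved together and many hold an E2F motif. Of 45 replication genes with a promoter in the RefSeq table (GRCh38.p14, matched by symbol, 250 bases before to 50 after the start), 20 held 1 of the E2F motifs TTTCCCGC, TTTGGCGC, TTTCGCGC or TTTGCCGC on either strand. That is 44.4%, against 5.15% of the 10340 promoters of genes tested. Among genes called with the block, 9.07% of those that rose and 4.57% of those that fell held it, and of the 73 genes that rose without the block 3.39%. A match describes letters only and is not a measured site, and the counts themselves were made on hg19. The printed promoters are of 3 replication genes that hold an E2F motif there, picked by small p with the block. Not all chromosomes were included in the choice, so a member with a smaller p may have been passed over. The 250 bases before the start are printed 5′ to 3′ on the strand of the gene, with the E2F motifs in capitals: GINS2 at chr16:85688955-85689204 (minus strand), POLA1 at chrX:24693668-24693917 (plus strand) and MCM7 at chr7:100101398-100101647 (minus strand).
GINS2: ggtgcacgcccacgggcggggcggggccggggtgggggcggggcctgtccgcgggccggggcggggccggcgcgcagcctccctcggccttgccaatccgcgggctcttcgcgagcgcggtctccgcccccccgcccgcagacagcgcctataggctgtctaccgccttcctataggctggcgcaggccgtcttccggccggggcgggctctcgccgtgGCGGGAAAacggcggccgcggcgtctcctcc
POLA1: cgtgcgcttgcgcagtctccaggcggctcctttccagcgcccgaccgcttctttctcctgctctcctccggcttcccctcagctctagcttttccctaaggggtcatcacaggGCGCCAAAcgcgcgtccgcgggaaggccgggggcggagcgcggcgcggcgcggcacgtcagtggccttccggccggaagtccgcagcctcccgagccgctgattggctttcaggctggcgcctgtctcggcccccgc
MCM7: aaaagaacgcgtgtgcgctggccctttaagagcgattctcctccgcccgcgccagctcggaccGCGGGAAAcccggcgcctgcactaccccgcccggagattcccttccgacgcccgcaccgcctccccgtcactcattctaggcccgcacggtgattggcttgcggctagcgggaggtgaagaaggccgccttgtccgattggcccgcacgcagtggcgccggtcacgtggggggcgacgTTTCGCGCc
The motif began 31 bases before the start in GINS2, 137 in POLA1, and 187 and 9 in MCM7.

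Nucleotide synthesis and repair genes were mostly higher as well, and edgeR called them only with the block. Of 29 nucleotide synthesis genes 0 were called without the block, with 15 higher and 1 lower at an unadjusted p under 0.05. DESeq2 called 9 higher and 1 lower, and the block 18 higher and 3 lower (12 to 16 higher and 0 to 1 lower with the block and 1 of the 100 pM libraries left out). TK1, thymidine kinase, measured 35.8 and 49.2 at 6 h and 114 and 177 CPM at 18 h (log2 change 1.78 ± 0.48, adjusted p = 0.122; with the block 0.000416). RRM2 measured 33.9 and 57.2 at 6 h and 119 and 249 CPM at 18 h (log2 change 2.02 ± 0.71, adjusted p = 0.208; with the block 0.00335), and its vehicle libraries 18.1 to 48.3 CPM. In both genes the lower 18 h library was above both 6 h libraries. Of 34 genes of homologous recombination and the Fanconi pathway 0 were called without the block, with 17 higher and 0 lower at an unadjusted p under 0.05. DESeq2 called 7 and the block 27, all higher (18 to 24 higher with the block and 1 of the 100 pM libraries left out), with a median of 0.79. EXO1, an exonuclease, measured 9.18 and 14.5 at 6 h and 30.4 and 53.8 CPM at 18 h (log2 change 1.83 ± 0.57, adjusted p = 0.159; with the block 0.000225). BRIP1, a helicase of the Fanconi pathway, had a change of 1.33 ± 0.51 (adjusted p = 0.244 and 0.000223 with the block).

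Mitosis genes had higher estimates too, with a larger gap between the replicate numbers. Of 56 genes tested, 45 were higher in both replicate numbers and 1 lower in both, and the median was 0.466 in replicate 1 and 0.837 in replicate 3, against -0.471 and -0.0551 in vehicle. Replicate 3 had the larger change in 54 of the 56. In vehicle 53 of the 56 had lower estimates at 18 h. EdgeR called 0 without the block, with 11 higher and 0 lower at an unadjusted p under 0.05. DESeq2 called 3 and the block 36, all higher, and 13 to 32 with the block and 1 library left out. MKI67, the proliferation marker, measured 64.8 and 82.3 at 6 h and 120.0 and 209.6 CPM at 18 h (log2 change 1.16 ± 0.38, adjusted p = 0.178; with the block 0.00245). In vehicle MKI67 was at 40.1 to 72.1 CPM. CENPI, of the inner kinetochore, measured 4.33 and 5.797 at 6 h and 10.2 and 17.96 CPM at 18 h (log2 change 1.47 ± 0.43, adjusted p = 0.1401; with the block 0.000282). ECT2, the exchange factor of cytokinesis, had a change of 0.60 ± 0.21 (adjusted p = 0.199 and 0.00107 with the block), and PRC1, of the spindle midzone, 0.97 ± 0.42 (adjusted p = 0.299 and 0.00333 with the block). ECT2 and PRC1, like MCM7, are named for their promoters and were chosen after their values were seen.

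The promoters of mitosis genes differed from those of replication genes in the motifs they held. A CCAAT box (CCAAT) was in 76.1% and a CHR (TTTGAA or TTCGAA) in 69.6% of 46 mitosis promoters, both strands read, against 36.4% and 11.1% of all promoters of genes tested. In the replication list these shares were 57.8% and 4.44%, and the E2F motifs were in 8.7% of mitosis promoters. The receptor motif TGTTCT, which progesterone and glucocorticoid receptors share, was in 8.47% of the promoters of genes that rose without the block and 4.29% of those that fell, against 9.11% of all. For 3 mitosis genes that hold both a CCAAT box and a CHR, picked with the same limit on chromosomes, the 250 bases before the start are printed in the same way, with CCAAT boxes and CHR in capitals: ECT2 at chr3:172750476-172750725 (plus strand), MKI67 at chr10:128126424-128126673 (minus strand) and PRC1 at chr15:90994536-90994785 (minus strand).
ECT2: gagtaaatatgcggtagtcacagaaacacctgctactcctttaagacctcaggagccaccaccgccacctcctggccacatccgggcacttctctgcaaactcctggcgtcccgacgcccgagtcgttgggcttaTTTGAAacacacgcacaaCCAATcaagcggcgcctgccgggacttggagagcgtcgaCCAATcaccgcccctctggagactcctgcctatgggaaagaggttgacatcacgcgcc
MKI67: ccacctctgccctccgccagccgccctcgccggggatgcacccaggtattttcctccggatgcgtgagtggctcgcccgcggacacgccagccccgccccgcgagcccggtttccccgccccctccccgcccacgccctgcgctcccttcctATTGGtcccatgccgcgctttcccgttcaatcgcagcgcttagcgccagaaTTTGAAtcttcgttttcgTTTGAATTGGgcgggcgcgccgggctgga
PRC1: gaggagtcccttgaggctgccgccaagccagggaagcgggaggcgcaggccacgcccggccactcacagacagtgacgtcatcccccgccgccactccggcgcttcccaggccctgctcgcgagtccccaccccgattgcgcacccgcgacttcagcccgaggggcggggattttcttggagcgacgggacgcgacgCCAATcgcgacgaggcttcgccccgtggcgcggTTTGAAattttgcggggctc
The CHR began 115 bases before the start in ECT2, 47 and 29 in MKI67 and 20 in PRC1, and the nearer one in MKI67 shares 1 base with a CCAAT box read on the other strand.

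**Figure D3:**
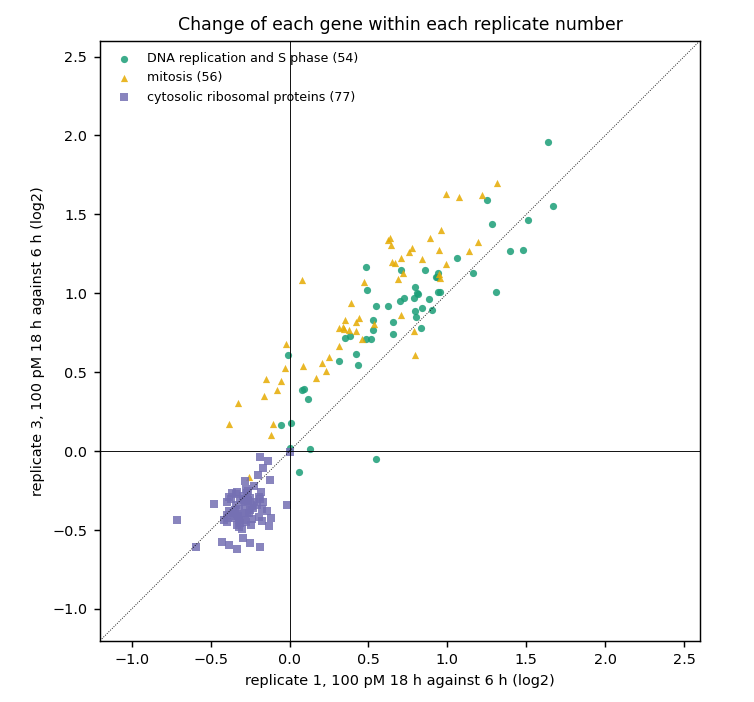
Log2 change from 6 h to 18 h at 100 pM within replicate 1 (horizontal axis) and within replicate 3 (vertical axis), 1 point for each gene of 3 lists; the dotted line marks equal change. Of the mitosis genes 54 of 56 lie above the line, the replication genes lie mostly in the upper right, and all 77 ribosomal protein genes lie below 0 on both axes.

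Regulators of G1 were mixed. Of 32 tested 0 were called without the block, with 11 higher and 3 lower at an unadjusted p under 0.05. DESeq2 called 6 higher and 1 lower, and the block 15 higher and 4 lower (7 to 14 higher and 1 to 2 lower with the block and 1 of the 100 pM libraries left out). CDKN1A, the inhibitor p21, measured 31.04 and 24.3 at 6 h and 46.1 and 45.2 CPM at 18 h (log2 change 0.72 ± 0.15, adjusted p = 0.06005; with the block 0.000136). E2F8, a repressor of the E2F family, measured 3.77 and 6.85 at 6 h and 10.3 and 18.9 CPM at 18 h (log2 change 1.46 ± 0.58, adjusted p = 0.2604; with the block 0.00128). CDK6, a kinase of G1, measured 16.4 and 11.5 at 6 h and 5.71 and 5.71 CPM at 18 h (log2 change -1.29 ± 0.36, adjusted p = 0.132; with the block 0.000505), and both 18 h libraries were below all vehicle libraries (12.8 to 21.9 CPM). CCND1, a cyclin of G1, measured 444 and 365 at 6 h and 369 and 261 CPM at 18 h (log2 change -0.36 ± 0.16, adjusted p = 0.327; with the block 0.0434) and was above vehicle (87.4 to 103 CPM) in every 100 pM library. MYC measured 39.97 and 24.4 at 6 h and 45.5 and 25.5 CPM at 18 h (log2 change 0.14 ± 0.33, adjusted p = 0.879; with the block 0.616), with its replicates farther apart than its times, and its sign turned when 1 library was left out.

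The histone genes of S phase did not follow the replication list. Of 27 genes tested 1 was higher by estimate and 26 lower, with a median of -0.33. EdgeR called 0 without the block, with 0 higher and 2 lower at an unadjusted p under 0.05. DESeq2 called 0 and the block 4, all lower (2 to 5 lower with the block and 1 of the 100 pM libraries left out). In vehicle this list's median was -0.10, with 18 of the 27 estimates lower at 18 h. The difference from the change in vehicle was called for 0 of the 27, with or without the block. HIST1H2AC measured 44.01 and 55.03 at 6 h and 30.9 and 40.5 CPM at 18 h (log2 change -0.47 ± 0.22, adjusted p = 0.351; with the block 0.00177). Many histone genes are near copies of each other, and how the authors' counting shared reads among them is not given in the sources used here. SLBP, the protein that binds the stem-loop of histone mRNA, was called without the block: it measured 52.2 and 46.4 at 6 h and 73.9 and 89.7 CPM at 18 h (log2 change 0.73 ± 0.12, adjusted p = 0.0339); it was chosen after its values were seen.

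**Figure D4:**
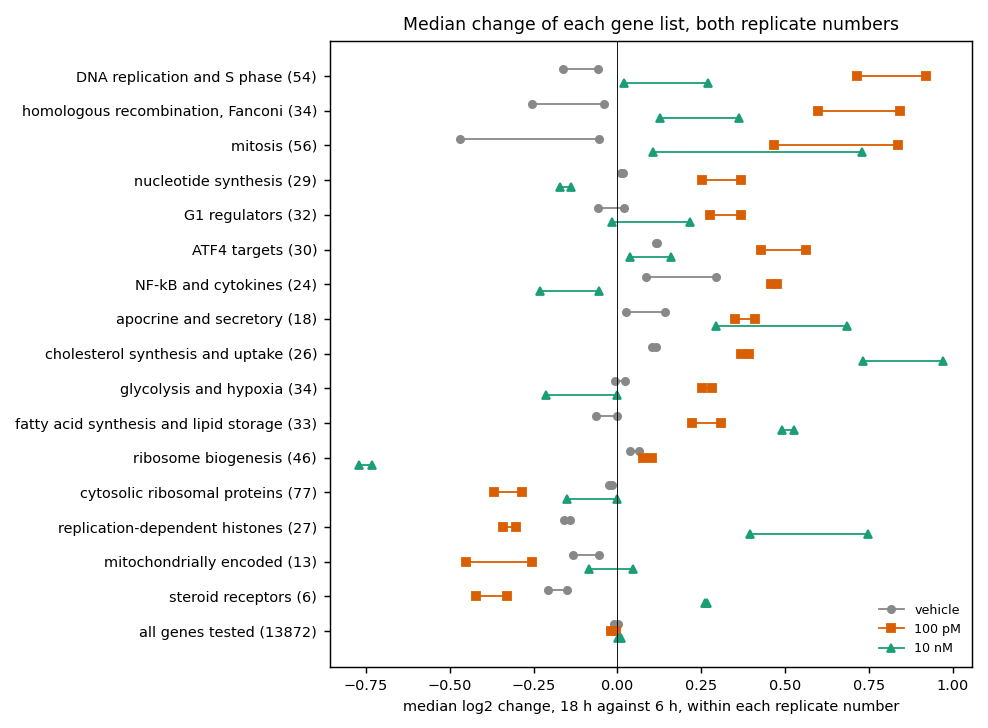
Median log2 change from 6 h to 18 h of each gene list (number of genes tested in parentheses), within replicate 1 and within replicate 3, joined by a line, for vehicle (circles), 100 pM (squares) and 10 nM (triangles). The squares of the replication, repair and mitosis lists lie to the right of the vehicle circles, those of ribosomal proteins, mitochondrially encoded genes and steroid receptors to the left, and the median of all genes is near 0 in every pair.

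Genes of cytosolic ribosomal proteins had lower levels at 18 h. All 77 tested were lower at 18 h in both replicate numbers, with a median of -0.32, from 38060 and 34090 CPM in sum at 6 h to 31580 and 26770 CPM at 18 h. RPS29 fell, with 201 and 187 at 6 h and 133 and 122 CPM at 18 h (log2 change -0.60 ± 0.10, adjusted p = 0.0339). It was the only member called without the block, where 52 had an unadjusted p under 0.05, all lower. DESeq2 called 18 and the block 65, all lower, and 33 to 63 with the block and 1 library left out. RPL13A measured 867 and 822 at 6 h and 665 and 544 CPM at 18 h (log2 change -0.48 ± 0.11, adjusted p = 0.0814; with the block 0.00135), and RPS19 377 and 342 at 6 h and 287 and 250.3 CPM at 18 h (log2 change -0.42 ± 0.10, adjusted p = 0.0925; with the block 0.00144). In vehicle the list's median was -0.02, and the difference from vehicle was called for 13 of 77 with the block and for 0 without it, where 20 had an unadjusted p under 0.05 and DESeq2 called 1. Ribosomal protein genes have many processed pseudogenes, and reads shared with them cannot be told apart here.

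Genes for making ribosomes had a median near 0. Of 46 ribosome biogenesis genes 0 were called without the block, with 6 higher and 0 lower at an unadjusted p under 0.05. DESeq2 called 3 and the block 7, all higher (2 to 6 higher with the block and 1 of the 100 pM libraries left out), and the median was 0.10. NOL6, a nucleolar protein of the small subunit, measured 40.2 and 33.2 at 6 h and 54.5 and 49.9 CPM at 18 h (log2 change 0.51 ± 0.11, adjusted p = 0.0667; with the block 0.000985). The 13 mitochondrially encoded genes were all lower by estimate, with a median of -0.38, against -0.08 in vehicle. EdgeR called 0 without the block, with 1 lower at an unadjusted p under 0.05. DESeq2 called 0 and the block 11, all lower (5 to 10 lower with the block and 1 of the 100 pM libraries left out). Their share of all counts was 7.89% and 10.7% at 6 h and 6.69% and 8.59% at 18 h, so the shares of the 2 times overlapped.

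Several secretory genes rose with the block. PIP, a protein of apocrine secretion, measured 247 and 569 at 6 h and 506 and 1301 CPM at 18 h (log2 change 1.15 ± 0.78, adjusted p = 0.521; with the block 6.83e-05), and replicate 3 was more than 2-fold above replicate 1 at each time. AZGP1, a secreted glycoprotein, measured 97.7 and 199 at 6 h and 330.4 and 551 CPM at 18 h (log2 change 1.57 ± 0.67, adjusted p = 0.299; with the block 0.000316). In vehicle AZGP1 was at 7.89 to 24.5 CPM. S100P, a calcium-binding protein, measured 4.94 and 2.11 at 6 h and 54.9 and 13.9 CPM at 18 h (log2 change 3.27 ± 0.65, adjusted p = 0.0575; with the block 0.000479), and here replicate 1 was higher. Of 18 apocrine and secretory genes tested, RBP2 was called without the block, and 7 rose and 5 fell with it (5 to 8 higher and 1 to 3 lower with the block and 1 of the 100 pM libraries left out). The 5 largest rises called only with the block were in S100P and 4 other secreted or epithelial proteins. SERPINA3, a protease inhibitor, measured 14.7 and 3.23 at 6 h and 166 and 46.1 CPM at 18 h (log2 change 3.56 ± 0.93, adjusted p = 0.113; with the block 0.000727). KRT16, a keratin of stratified epithelium, measured 2.23 and 0.628 at 6 h and 17.6 and 6.95 CPM at 18 h (log2 change 3.08 ± 0.65, adjusted p = 0.0655; with the block 0.00334). SBSN, of cornified epithelium, was at 0.171 and 0.0286 at 6 h and 7.4 and 0.704 CPM at 18 h. NELL2, a secreted glycoprotein, was at 1.49 and 0.5997 at 6 h and 8.101 and 3.88 CPM at 18 h. Both rose with the block (adjusted p = 0.00108 and 0.00106). For none of these 5 genes was the difference from the change in vehicle called (adjusted p with the block 0.0986 to 0.259). In vehicle both replicates were higher at 18 h for KRT16 (log2 0.87 and 1.41) and SERPINA3 (1.86 and 0.48). For S100P, SBSN and NELL2 the vehicle replicates went opposite ways.

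Of 23 genes of ion and water transport 2 rose without the block, AQP3 and KCNN4, and 9 rose and 1 fell with it (6 to 12 higher and 1 to 2 lower with the block and 1 of the 100 pM libraries left out). KCNN4, a calcium-activated potassium channel, was at 0.0245 and 0 at 6 h and 0.857 and 1.13 CPM at 18 h, below the level set for naming, and is given because it was 1 of the 2 called. ANO1 measured 6.07 and 10.5 at 6 h and 31.2 and 37.5 CPM at 18 h (log2 change 2.05 ± 0.49, adjusted p = 0.0925; with the block 5.65e-05), and both 18 h libraries were above every vehicle library (2.52 to 6.61 CPM). KCNMA1, another calcium-activated potassium channel, measured 56.2 and 132 at 6 h and 156 and 271 CPM at 18 h (log2 change 1.18 ± 0.69, adjusted p = 0.4502; with the block 0.000189).

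Without the block 2 genes rose in each of the ATF4 target and the glycolysis and hypoxia lists. Of 30 ATF4 targets SLC1A4 and VLDLR rose without the block, and 20 rose and 2 fell with it (14 to 19 higher and 0 lower with the block and 1 of the 100 pM libraries left out), with a median of 0.49. In vehicle this list's median was 0.13, with 23 of 30 estimates higher at 18 h, against 27 at 100 pM. The difference from the change in vehicle was called for 7 with the block, all higher, and for 0 without it. SLC1A4, a carrier of neutral amino acids, measured 30.03 and 29.1 at 6 h and 53.8 and 65.6 CPM at 18 h (log2 change 1.01 ± 0.11, adjusted p = 0.00859). VLDLR, a lipoprotein receptor, measured 11.3 and 10.5 at 6 h and 20.9 and 18.7 CPM at 18 h (log2 change 0.86 ± 0.16, adjusted p = 0.0482). PCK2, mitochondrial phosphoenolpyruvate carboxykinase, measured 25.2 and 20.4 at 6 h and 43.6 and 40.5 CPM at 18 h (log2 change 0.88 ± 0.18, adjusted p = 0.06005; with the block 0.000211). DDIT3 and ATF3 of the same pathway rose at 100 pM only with the block (0.47 and 0.40); their changes in vehicle were 0.74 and 0.70.

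Of 34 glycolysis and hypoxia genes ANGPTL4 and VEGFA rose without the block, and 14 rose and 2 fell with it (6 to 9 higher and 0 to 2 lower with the block and 1 of the 100 pM libraries left out). ANGPTL4, a lipoprotein lipase inhibitor, measured 21.9 and 32.5 at 6 h and 60.8 and 72 CPM at 18 h (log2 change 1.29 ± 0.23, adjusted p = 0.0431). VEGFA, the angiogenic growth factor, measured 146 and 131 at 6 h and 267 and 213 CPM at 18 h (log2 change 0.79 ± 0.14, adjusted p = 0.0438). Vehicle libraries held 21.4 to 29.6 CPM of ANGPTL4 and 116 to 162 CPM of VEGFA, so both genes were near vehicle at 6 h and above every vehicle library at 18 h. ENO2, an enolase, measured 27.9 and 13.7 at 6 h and 54.5 and 34.4 CPM at 18 h (log2 change 1.09 ± 0.53, adjusted p = 0.361; with the block 2.31e-05).

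Lipid synthesis genes were called by edgeR only with the block. Of 33 genes of fatty acid synthesis and storage edgeR called 0 without it, with 7 higher and 0 lower at an unadjusted p under 0.05. DESeq2 called 2 and the block 13, all higher (4 to 6 higher with the block and 1 of the 100 pM libraries left out). FASN, fatty acid synthase, measured 845 and 1309 at 6 h and 1668 and 1997 CPM at 18 h (log2 change 0.77 ± 0.36, adjusted p = 0.342; with the block 0.001401). ELOVL6, a fatty acid elongase, measured 8.88 and 10.8 at 6 h and 16.1 and 17.8 CPM at 18 h (log2 change 0.78 ± 0.16, adjusted p = 0.0563; with the block 0.000825). Of 26 cholesterol genes edgeR called 0 without the block, with 2 higher and 0 lower at an unadjusted p under 0.05. DESeq2 called 0, and the block 10 higher and 1 lower (5 to 9 higher and 0 to 1 lower with the block and 1 of the 100 pM libraries left out). The cholesterol list's median was 0.41 at 100 pM and 0.13 in vehicle, with 23 and 22 of the 26 estimates higher at 18 h. Its difference from the change in vehicle was called for 2 genes with the block, both higher, and for 0 without it. INSIG1, the sterol sensor partner, measured 64.4 and 33.4 at 6 h and 132 and 72.7 CPM at 18 h (log2 change 1.06 ± 0.49, adjusted p = 0.333; with the block 0.0004603), with replicate 1 the higher at each time.

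Signalling genes were called one at a time. TGFA, a ligand of the EGF receptor, rose, with 26.1 and 26.01 at 6 h and 47.3 and 39.1 CPM at 18 h (log2 change 0.73 ± 0.11, adjusted p = 0.0232). GHR, the growth hormone receptor, rose, with 74.7 and 86.5 at 6 h and 154 and 141 CPM at 18 h (log2 change 0.87 ± 0.14, adjusted p = 0.02805). ERBB4, a receptor of the same family as the EGF receptor, measured 26.6 and 30.98 at 6 h and 14.1 and 17.1 CPM at 18 h (log2 change -0.88 ± 0.18, adjusted p = 0.0619; with the block 0.000171). FZD2, a Wnt receptor, fell, with 33.2 and 28.4 at 6 h and 17.3 and 14.2 CPM at 18 h (log2 change -0.97 ± 0.15, adjusted p = 0.0263). LEF1, a Wnt transcription factor, measured 23.7 and 31.8 at 6 h and 9.997 and 12.9 CPM at 18 h (log2 change -1.28 ± 0.35, adjusted p = 0.128; with the block 6.91e-05), above vehicle (3.28 to 5.99 CPM) in all 4 libraries. JAG1, a Notch ligand, measured 19.8 and 19.9 at 6 h and 40.9 and 31.8 CPM at 18 h (log2 change 0.88 ± 0.18, adjusted p = 0.0628; with the block 0.000208), opposite in sign to the coactivator MAML2. In the clock list TEF fell (-0.55 ± 0.10, adjusted p = 0.0446) and BHLHE40 rose (0.56 ± 0.11, adjusted p = 0.0495), 1 each way of 22 tested. Of 24 NF-kB and cytokine genes edgeR called 0 without the block, with 2 higher and 0 lower at an unadjusted p under 0.05. DESeq2 called 0, and the block 10 higher and 1 lower (5 to 9 higher and 1 lower with the block and 1 of the 100 pM libraries left out). This list's median was 0.50 at 100 pM and 0.26 in vehicle, with 21 and 18 of the 24 estimates higher at 18 h. With the block the difference from the change in vehicle was called for 2 higher and 1 lower.

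Matrix and adhesion genes were mixed. Of 31 integrin and matrix genes 19 had higher and 12 lower estimates at 18 h (median 0.11), and of 27 tight junction and adhesion genes 17 and 10 (median 0.01). COL12A1, a collagen of fibril surfaces, measured 438 and 268 at 6 h and 214 and 138 CPM at 18 h (log2 change -1.004 ± 0.44, adjusted p = 0.305; with the block 9.37e-06). FN1, fibronectin, measured 190.4 and 179.5 at 6 h and 125 and 132 CPM at 18 h (log2 change -0.53 ± 0.12, adjusted p = 0.0814; with the block 0.00103). LAMB1, a laminin chain, measured 103 and 93.1 at 6 h and 67.5 and 67.6 CPM at 18 h (log2 change -0.54 ± 0.11, adjusted p = 0.0566; with the block 0.000576). In the integrin and matrix list edgeR called 0 without the block, with 3 higher and 7 lower at an unadjusted p under 0.05. DESeq2 called 3 lower, and the block 4 higher and 7 lower (2 to 4 higher and 5 to 6 lower with the block and 1 of the 100 pM libraries left out). GFRA1, a receptor for glial cell line-derived factor, measured 12.9 and 24.1 at 6 h and 3.401 and 8.304 CPM at 18 h (log2 change -1.66 ± 0.57, adjusted p = 0.194; with the block 1.16e-05). FAT4, a large cadherin, measured 6.36 and 3.598 at 6 h and 1.84 and 1.32 CPM at 18 h (log2 change -1.65 ± 0.44, adjusted p = 0.118; with the block 0.000212). CTNND2 measured 21.2 and 10.97 at 6 h and 6.96 and 4.03 CPM at 18 h (log2 change -1.55 ± 0.54, adjusted p = 0.204; with the block 1.18e-05). The summed fibroblast markers were also lower at 18 h, with COL1A2 at 0 throughout, and their part in these values was not tested. Both 18 h libraries of FN1 and LAMB1 were below every vehicle library, at 183 to 206 CPM and 108 to 124 CPM.

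CYP1A1 and CYP1B1, cytochromes of xenobiotic metabolism, fell with the block at 100 pM and had lower levels at 18 h in vehicle too. CYP1A1 measured 96.8 and 25.9 at 6 h and 22.5 and 8.22 CPM at 18 h (log2 change -1.997 ± 1.04, adjusted p = 0.396; with the block 0.0136), and in vehicle 87.3 and 10.8 at 6 h and 10.9 and 3.14 CPM at 18 h. CYP1B1 measured 278 and 100.1 at 6 h and 65.4 and 51.99 CPM at 18 h (log2 change -1.69 ± 0.64, adjusted p = 0.237; with the block 0.0492), and in vehicle 472 and 119 at 6 h and 95.5 and 56.1 CPM at 18 h. Their changes in vehicle, -2.81 and -1.96, were not called (adjusted p = 1 and 1; with the block 0.136 and 0.274), and replicate 1 was several times above replicate 3 at 6 h in both conditions.

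At 10 nM the change over the same hours differed from that at 100 pM for many genes. The difference was called for 1697 genes (12.2%), and with the block for 5215 (37.6%), 2669 with a higher change at 100 pM (19.2%) and 2546 with a lower one (18.4%). FGD5, which rose at 100 pM, measured 2.33 and 1.55 at 6 h and 1.21 and 0.815 CPM at 18 h at 10 nM (difference 3.10 ± 0.43, adjusted p = 0.00427). AQP3 measured 6.64 and 6.18 at 6 h and 7.09 and 8.595 CPM at 18 h there, within a few CPM of vehicle. ARC, an activity-regulated cytoskeletal gene, measured 2.67 and 3.798 at 6 h and 5.27 and 4.701 CPM at 18 h at 100 pM and 3.27 and 3.53 at 6 h and 0.4305 and 0.5899 CPM at 18 h at 10 nM (difference 3.35 ± 0.39, adjusted p = 0.00229). SOX2, a stem cell factor, measured 5.04 and 5.91 at 6 h and 2.15 and 2.73 CPM at 18 h at 100 pM and 0.0277 and 0.0846 at 6 h and 0.201 and 0.534 CPM at 18 h at 10 nM (difference -3.81 ± 0.997, adjusted p = 0.0405), and its 10 nM level at 6 h rests on few counts.

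The lists differed in how far the doses parted. The ribosome biogenesis list had a median of -0.72 at 10 nM and 0.10 at 100 pM, and 25 of its 46 genes had a higher change at 100 pM without the block, while of 77 cytosolic ribosomal protein genes 0 had a higher and 2 a lower one. Nucleotide synthesis had medians of -0.16 at 10 nM and 0.34 at 100 pM, and 10 of 29 had a higher change at 100 pM. Replication-dependent histones had a median of 0.66 at 10 nM and -0.33 at 100 pM, and 4 of 27 had a lower change at 100 pM. For the DNA replication list the medians were 0.17 and 0.85; edgeR called the difference for 0 of 54 without the block, with 6 higher at 100 pM and 0 lower at an unadjusted p under 0.05. DESeq2 called it for 4 and the block for 34, all higher at 100 pM.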

How the data were processed

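The series measured total RNA of T47D cells in 12 libraries, 2 for each of 6 groups of dose and time. The authors deposited whole-number read counts per gene in a single table; per the submitters' processing notes reads were aligned to hg19 with STAR and DESeq2 was used, while no source used here gives the counting tool, gene annotation or strand setting. Genes are named by the symbols of the table, and columns were mapped to samples by name.

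Counts were tested with edgeR 4.0.16 (quasi-likelihood F test, robust, TMM scaling, filterByExpr) in R 4.3.3, with 1 coefficient for each of the 6 groups over all 12 libraries, and p-values were adjusted over all 13872 genes tested by Benjamini and Hochberg. Among 20114 genes listed, 2709 had no count. The fit had 6 residual degrees of freedom, or 5 with the replicate block. Deviations of libraries with the same replicate number correlated at r = 0.464 to 0.677 across the 15 pairs of groups (0.639 between 100 pM at 6 h and 18 h), so the numbers were taken as pairs and the 3076 calls at 100 pM with the block stand beside the 164 without it. This pairing comes from the data and the shared numbers; the labels do not say what the numbers share. Library totals ran from 34204970 to 41373890 counts.

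Genes were named by rule: the 10 largest called rises and falls with a mean of at least 4 CPM in the higher group and no overlap between times; up to 8 and 8 for the difference from vehicle, 5 and 5 for vehicle and for the difference from 10 nM; at most 5 each way called only with the block; up to 4 called members of each of 49 lists; and PGR, ESR1, FKBP5, SGK1, GREB1, CCND1, MYC and MKI67. The comparison and lists were chosen with earlier results of these data known. Alternatives were DESeq2 1.42.0, RLE size factors, no filter, at least 50 counts in 2 libraries, leaving out mitochondrially encoded genes, fitting only the libraries compared, the replicate block, and leaving out each library. The block with each 100 pM library left out was added after seeing the data. Promoters came from RefSeq (GRCh38.p14), matched by symbol; coordinates are of that build and were not joined to hg19. The scripts were tested on simulated data. Some genes that the naming rule covers are not reported here.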

Additional observations from a re-analysis of the deposited data

Results flagged for a closer look

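The change from 6 h to 18 h differed between 100 pM and vehicle for 2 genes in edgeR's test of the difference itself: MAML2 at -1.22 and NPNT at -1.01 (log2, 100 pM minus vehicle). Both were nearly level in vehicle and lower in both 18 h libraries at 100 pM.

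The change differed between 100 pM and 10 nM for 1697 genes by the same kind of test. Among those with a higher change at 100 pM were ARC at 3.35, FGD5 at 3.10, BCAS1 at 2.57, KCNC1, a potassium channel, at 2.52 and ENTPD3, an ectonucleotidase, at 2.19. Among those with a lower change at 100 pM were FAM83A at -3.82, SOX2 at -3.81, the membrane proteins SLITRK5 and SLITRK6 at -3.16 and -2.99, and SLC15A2, a peptide transporter, at -2.99.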

How the results depend on the processing

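The number of genes called at 100 pM depended most on how replicates were treated. Against 164 calls, the replicate block gave 3076, DESeq2 855 (56.0% of them higher, against 44.5%) and a fit of only the libraries compared 0, while leaving out 1 library gave 9 to 26, and 1289, 1729, 1756 and 1941 with the block. Scaling and filter settings gave 149 to 178. In vehicle the block gave 4 and DESeq2 2 against 0. For the difference from vehicle, 2 became 777 with the block, 108 with DESeq2, 1 with RLE size factors, 5 with no filter, 6 with at least 50 counts in 2 libraries, 0 with only the libraries compared (1551 with the block as well) and 0 without any 1 library. For the difference from 10 nM, 1697 became 5215 with the block, 2553 with DESeq2, 861 with only the libraries compared (4472 with the block) and 746 to 1282 without 1 library (100 pM: 934 without replicate 1 at 18 h and 746 without replicate 3 at 6 h; 10 nM: 1114 and 1064 without replicates 1 and 3 at 18 h, 819 and 1038 at 6 h). MAML2, NPNT, PLEKHH2, FGF12, AQP3 and GRHL2 were called at 100 pM in 14 of 15 alternatives. Estimates that changed sign when 1 library was left out were those of MYC (-0.34 to 0.55, among them -0.13, and -0.10 with the block), ICAM1 (-0.66 to 3.11, and in vehicle -0.73 to 2.83), ATF3 (-0.04 to 1.09, among them -0.02), FKBP5 (-0.10 to 0.42, and -0.12 with the block) and SGK1 (-0.55 to 0.18). Of 142 gene results the block moved 87 past the threshold and changed no other call. Some of these genes were named because the block called them, so this count follows in part from the naming rule. The cause of these shifts in calls and estimates was not tested. With 2 libraries a group, genes of a few CPM are measured with little precision.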

Other observations

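Other lists moved by fewer members, all counts at 100 pM, 18 h against 6 h. Of 20 aminoacyl tRNA synthetases edgeR called 0 without the block, with 0 higher and 1 lower at an unadjusted p under 0.05. DESeq2 called 0, and the block 8 higher and 1 lower, among them GARS (0.52) and AARS (0.51). With the block and 1 of the 100 pM libraries left out, 4 to 6 were higher and 0 to 1 lower. This list's median was 0.19 at 100 pM and 0.05 in vehicle, with 16 and 15 of the 20 estimates higher at 18 h. The difference from the change in vehicle was called for 0 of the 20, with or without the block. Of 22 immediate early factors edgeR called 0, with 2 higher at an unadjusted p under 0.05; DESeq2 called 2 and the block 7, all higher (2 to 6 higher and 0 to 1 lower with the block and 1 of the 100 pM libraries left out). The median of this list was 0.17 at 100 pM and 0.19 in vehicle, with 17 of 22 estimates above 0 in each. The nuclear receptor gene NR4A1 measured 13.9 and 20.3 at 6 h and 31.2 and 32.7 CPM at 18 h (log2 change 0.90 ± 0.28, adjusted p = 0.000578 with the block). Of 22 p53 targets edgeR called 0, with 2 higher and 2 lower at an unadjusted p under 0.05; DESeq2 called 1 each way, and the block 7 higher and 4 lower (2 to 4 higher and 2 to 3 lower with the block and 1 of the 100 pM libraries left out). CDKN1A was higher, while TP53INP1 (-0.66) and CCNG1 (-0.33) fell with the block.

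Of 20 insulin and IGF signalling genes edgeR called 0, with 3 higher and 2 lower at an unadjusted p under 0.05; DESeq2 called 1 higher, and the block 4 higher and 8 lower (0 to 2 higher and 1 to 4 lower with the block and 1 of the 100 pM libraries left out). IGF1, the growth factor, measured 2.203 and 2.23 at 6 h and 7.12 and 3.72 CPM at 18 h and rose with the block (adjusted p = 0.00822), while IGFBP5 and IGFBP4, which bind it, fell with the block (-0.46 and -0.32). ADORA1, an adenosine receptor in the estrogen target list, measured 0.563 and 0.914 at 6 h and 1.97 and 4.42 CPM at 18 h (log2 fold change 2.12 ± 0.68, adjusted p = 0.1703 and 0.000483 with the block).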
